A study of Mus musculus with 16 samples.

Results

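The 10 genes described here, Socs3, Stat3, Il6ra, Il6st, Nfkbia, Nfkbiz, Tnfaip3, Il1b, Il1r1 and Icam1, encode signalling components, feedback regulators and targets of the STAT3 and NF-kB pathways. They were chosen by name from the 57010 genes listed in a liver RNA-seq table, and all 10 had a mean of at least 1 TPM (a level scaled for transcript length and to the same total in every library), as did 11766 genes in all. Livers were taken from 16 wild-type male C57BL/6J mice, with 4 mice in each of 4 groups. The study describes its mice as 8 to 12 weeks old and those put on the diet as 8 weeks old at its start, and livers were taken when treatment ended. Control mice received neither agent. Cd mice received intraperitoneal CdCl2 at 1.25 mg/kg daily for 7 days. Se mice were fed a diet with 2 ppm selenomethionine (SeMet) for 3 months. Cd+Se mice received both, with CdCl2 given over the last 7 days of the diet. Whether control and Cd mice were fed a matched diet, and whether mice without Cd were injected with vehicle, is not given in the sources used here. Each mouse is 1 library. The depth cannot be read from TPM, and the precision rests on the 4 mice per group.

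In the liver, interleukin-6 binds its receptor alpha chain (Il6ra), and the complex recruits the shared receptor subunit gp130 (Il6st). JAK kinases bound to gp130 then phosphorylate STAT3, which moves to the nucleus and induces acute-phase genes together with Socs3, an inhibitor that acts back on gp130. Interleukin-1β (Il1b) signals through its receptor (Il1r1) to the IkB kinases, which mark IkBα (Nfkbia) for degradation and so release NF-kB. NF-kB in turn induces several of its own regulators, among them Nfkbia, the ubiquitin-editing enzyme A20 (Tnfaip3) and the nuclear cofactor IkBζ (Nfkbiz), and it induces the leukocyte adhesion molecule ICAM-1 (Icam1).

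Sequences at the RefSeq start of 4 of these genes are shown because they hold motifs of the 2 factors. Windows from 250 bases before to 50 bases after the RefSeq start (GRCm38.p6) were found for 9 of the 10 genes, 11 windows in all, and none was found for Nfkbiz. The NF-kB motif searched was GGNNTTTCC on either strand, which occurs in 5.82% of the 32851 mouse promoter windows of the same length. The STAT motif searched was TTCNNNGAA, which reads the same on both strands and occurs in 8.3% of them. The NF-kB motif was present in a window of Nfkbia, Tnfaip3 and Icam1, with 2 matches in each, and the STAT motif in a window of Socs3 and Icam1, with 1 match in each. A match describes these letters only and was not tested for binding. The sequences below run 5′ to 3′ on the strand of the gene, with motif matches in capitals. The Nfkbia stretch is the 250 bases before the start, at chr12:55492648-55492897 on the minus strand, and holds GGACTTTCC and GGAAATTCC.
Nfkbia: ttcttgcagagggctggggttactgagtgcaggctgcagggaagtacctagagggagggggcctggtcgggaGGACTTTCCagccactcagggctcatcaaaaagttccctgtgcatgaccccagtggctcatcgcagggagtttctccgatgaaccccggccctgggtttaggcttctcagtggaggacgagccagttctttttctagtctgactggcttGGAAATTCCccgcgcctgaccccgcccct
The Icam1 stretch is the 250 bases before the start, at chr9:21015690-21015939 on the plus strand. It holds 2 NF-kB matches, followed by a STAT match closest to the start.
Icam1: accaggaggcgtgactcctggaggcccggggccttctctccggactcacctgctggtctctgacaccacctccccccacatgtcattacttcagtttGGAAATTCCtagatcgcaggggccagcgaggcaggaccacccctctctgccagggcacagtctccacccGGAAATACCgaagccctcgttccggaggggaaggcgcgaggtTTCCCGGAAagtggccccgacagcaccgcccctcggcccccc
For Tnfaip3 and Socs3 only the matches with their flanks are shown. The Tnfaip3 pair lies at chr10:19015410-19015438 on the minus strand, next to the RefSeq start, and the Socs3 match at chr11:117969502-117969530 on the minus strand. The GENCODE M21 annotation starts Tnfaip3 247 bases and Socs3 681 bases farther upstream, so by that annotation these matches lie inside the genes, outside their exons. It starts Icam1 45 bases farther downstream and Nfkbia at the same base, and the matches of both lie before the gene in either annotation.
Tnfaip3: gactGGAATTTCCatcGGAAATCCCcctg
Socs3: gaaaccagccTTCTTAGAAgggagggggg

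Levels were compared as log2(TPM + 1) with limma in 1 model over the 16 mice, and a gene was called where its p-value, adjusted by the Benjamini-Hochberg method over the 11766 genes, was under 0.05. Changes of genes with few TPM are understated on this scale. Which groups received Cd was checked with Mt1 and Mt2, which encode the metal-binding metallothioneins. Mt1 was between 50.91 and 221.04 TPM in control mice, between 3178.11 and 4899.18 in Cd mice, between 3621.35 and 6070.32 in Cd+Se mice and between 64.34 and 431.03 in Se mice. The groups given Cd and those not given Cd did not overlap for Mt1. Its ranges overlapped between Cd and Cd+Se mice and between control and Se mice, so the SeMet labels were not checked. The hepatocyte marker Alb had 52100 ± 8170 TPM (SD, n = 4) in control mice, and 0 of the 5 hepatocyte markers were at 0 in any mouse. Libraries of 2 mice stood apart from the rest. Cd mouse 5 had the lowest median log2 level (2.68, against 2.90 to 3.36 in the other mice) and carried 36.4% of the first principal component. Cd+Se mouse 15 carried 83.4% of the third component. For the genes named at the start, calls that rest on either mouse are given with and without it. For other pathway genes named by a rule given below, the effect of leaving out both mice together is given. Calls on cell type markers and on targets named beyond that rule are given with all mice only.

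Cd against control was the first comparison, which asks how the liver of mice fed without SeMet responded to Cd. Il6st fell and Nfkbia rose, and these were the 2 of the 10 genes that were called. The NF-kB regulators and Icam1 had higher mean levels in Cd mice, whereas the receptors and Stat3 had lower ones. For scale, 30.8% of all genes tested were called, 5.82% as higher and 24.9% as lower, and the median log2 fold change of all genes was -0.17. Median log2 levels per library were 2.68 to 3.12 in Cd mice and 3.11 to 3.20 in control mice, and higher calls were 18.9% of all calls, 42.9% with quantile normalization and 55.6% with each library centred on its median. The 2 calls among the 10 genes are no more than that background. The values of 6 of the 10 genes did not overlap between Cd and control mice, beside 34.2% of all genes tested. Nfkbia, Nfkbiz, Tnfaip3 and Icam1 lay above the control values in every Cd mouse, and Il6ra and Il6st lay below them. Tnfaip3, whose mean was under 1 TPM in control and Se mice, passed the filter on low values through the groups given Cd. Its lowest value in Cd mice was 0.96 TPM, beside a highest value of 0.93 TPM in control mice.

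**Figure D1:**
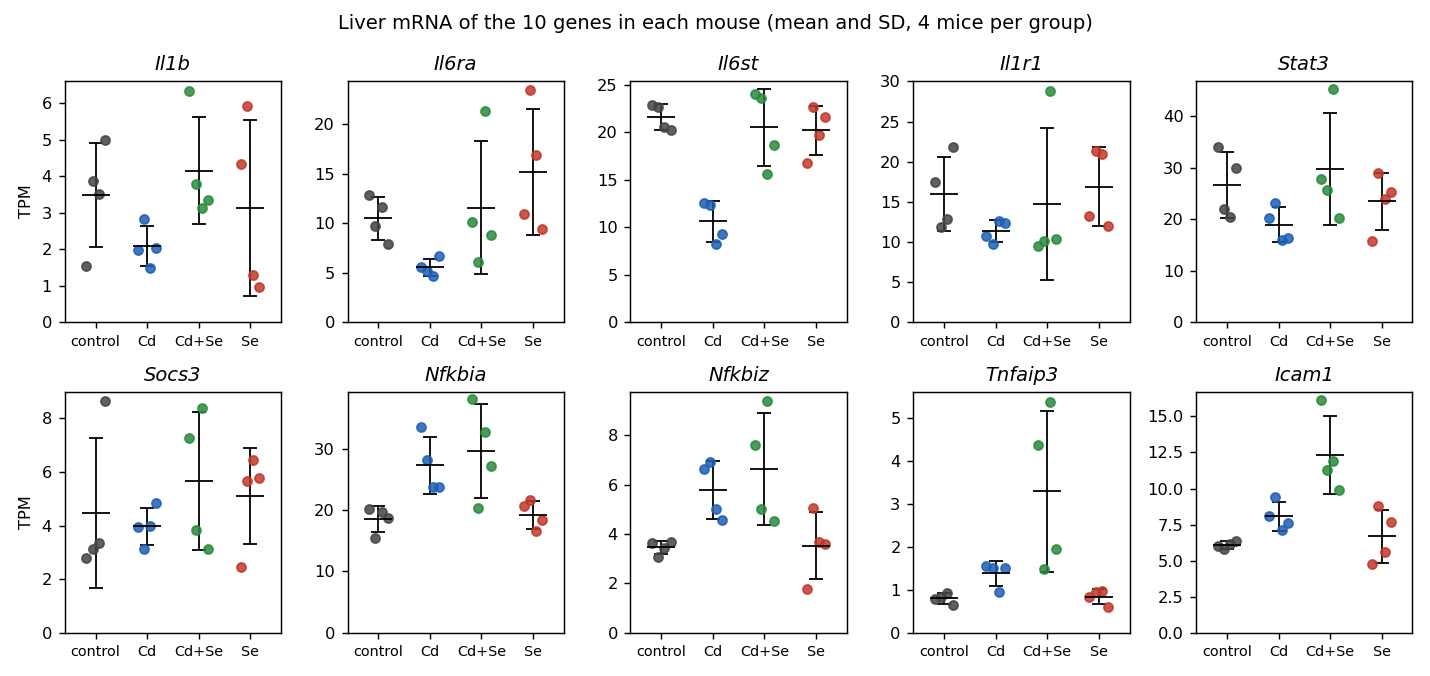
Levels of the 10 genes in TPM (y axes, each from 0) in the 4 mice of each group, with 1 point per mouse, a horizontal line for the mean and bars for the SD. Il6st lies between 8.22 and 12.59 TPM in Cd mice and at 15.63 TPM or above in every other mouse, and Cd+Se mouse 15 gives the highest Il6ra, Il1r1 and Stat3 values of its group.

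Among the 3 receptor genes of the 10, Il6st, the gp130 subunit shared by interleukin-6, leukaemia inhibitory factor, oncostatin M and interleukin-11, had the largest change in Cd against control. Its gene lies at chr13:112464070-112510086 on the plus strand (positions here and below are from GENCODE M21, GRCm38). Il6st was 22.90, 22.63, 20.60 and 20.28 TPM in control mice, against 12.59, 12.36, 8.22 and 9.31 TPM in Cd mice. It was 24.07, 23.67, 15.63 and 18.72 TPM in Cd+Se mice and 16.78, 22.70, 19.70 and 21.67 TPM in Se mice. Every Cd mouse was below every mouse of the other 3 groups, and those 3 groups overlapped one another. The mean was 21.6 ± 1.35 TPM (SD, n = 4) in control and 10.6 ± 2.19 in Cd mice, a ratio of 0.492. The log2 fold change was -0.98 (standard error, SE, 0.15, adjusted p = 0.000533 by limma), and it was called under all 24 alternative settings tried, with values from -1.06 to -0.87 when each mouse was left out. It was smaller with quantile normalization (-0.79) and with each library centred on its median (-0.76).

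Il6ra (chr3:89864059-89913196, minus strand), the chain that binds interleukin-6 itself, was 12.81, 9.71, 11.63 and 7.87 TPM in control mice, against 5.59, 5.14, 4.69 and 6.71 TPM in Cd mice. It was 10.11, 6.07, 21.33 and 8.76 TPM in Cd+Se mice and 10.96, 23.41, 16.92 and 9.36 TPM in Se mice. Every Cd mouse was below every control mouse, but Cd+Se mouse 14 lay within the Cd range, and the Cd+Se and Se groups spread widely. In Cd against control its log2 fold change was -0.81 (SE 0.30, adjusted p = 0.0537 by limma), which missed the threshold. It was called without Cd+Se mouse 15 (adjusted p = 0.0183), since the spread is shared over all groups, and also without control mouse 30, Cd+Se mouse 14, Se mouse 40 or Se mouse 44 (0.0367 to 0.0494).

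Il1r1 (chr1:40225080-40317257, plus strand), the signalling receptor of interleukin-1, was between 11.88 and 21.83 TPM in control mice, against 9.76 to 12.54 TPM in Cd mice. In Cd+Se mice it was 9.44, 10.07, 28.86 and 10.30 TPM, where mouse 15 stood far above the other 3, and in Se mice it was between 12.02 and 21.29 TPM. Its groups overlapped in every comparison, and it was not called in any. Its ligand gene Il1b (chr2:129364570-129371139, minus strand) was 1.55, 3.87, 3.52 and 4.98 TPM in control mice. In Cd mice it was 1.98, 2.82, 1.49 and 2.04 TPM, in Cd+Se mice 6.33, 3.80, 3.13 and 3.36 TPM and in Se mice 4.34, 5.92, 1.30 and 0.96 TPM. Every Cd+Se mouse was above every Cd mouse, whereas control and Se mice spread over both ranges. Il1b was not called in any comparison either.

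Stat3 (chr11:100885098-100939540, minus strand), the transcription factor downstream of gp130, had the highest mean of the 10 genes over all mice, 24.7 TPM. It was 34.03, 22.04, 20.44 and 30.01 TPM in control mice. In Cd mice it was 20.17, 23.13, 16 and 16.35 TPM, in Cd+Se mice 27.79, 25.64, 45.39 and 20.30 TPM and in Se mice 15.82, 28.99, 23.96 and 25.34 TPM. The groups overlapped in every comparison. Its log2 fold change was -0.46 in Cd against control (SE 0.23, adjusted p = 0.147 by limma) and 0.58 in Cd+Se against Cd (SE 0.23, adjusted p = 0.0956 by limma). The latter was 0.37 without Cd+Se mouse 15 (adjusted p = 0.254 by limma) and 0.29 without both that mouse and Cd mouse 5. Exons of Stat3 and Stat5a, which lie on opposite strands, share up to 72 bases, and whether reads were counted by strand is not given in the sources used here. Stat5a had a mean of 2.53 TPM. Il6ra, Il1b and Icam1 overlap antisense genes, and those had means of at most 0.0806 TPM.

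Socs3 (chr11:117966079-117970047, minus strand), the STAT3-induced inhibitor of gp130, was 2.78, 3.11, 3.36 and 8.65 TPM in control mice. In Cd mice it was 3.94, 3.14, 4 and 4.84 TPM, in Cd+Se mice 7.29, 3.85, 8.40 and 3.14 TPM and in Se mice 2.47, 5.68, 6.45 and 5.79 TPM. The highest value of all was that of control mouse 30, and the groups overlapped in every comparison. With Cd alone its log2 fold change was -0.03 (SE 0.32, adjusted p = 0.948 by limma), and it lay between -0.17 and 0.28 when each mouse was left out in turn. Socs3 was not called in any comparison.

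Of the NF-kB feedback regulators, Nfkbia was called. Nfkbia (chr12:55489410-55492647, minus strand), whose product holds NF-kB in the cytoplasm, was 20.13, 15.47, 19.74 and 18.64 TPM in control mice, against 33.51, 28.19, 23.71 and 23.73 TPM in Cd mice. It was 38.14, 20.33, 32.72 and 27.11 TPM in Cd+Se mice and 20.62, 21.56, 16.51 and 18.33 TPM in Se mice. Every Cd mouse was above every control and Se mouse, and 3 of the 4 Cd+Se mice were as well. The mean rose from 18.5 ± 2.11 to 27.3 ± 4.65 TPM (SD, n = 4), a ratio of 1.48, with a log2 fold change of 0.53 (SE 0.17, adjusted p = 0.0268 by limma). This call was lost without control mouse 28 (0.45, adjusted p = 0.0853), without Cd mouse 1 (0.43, adjusted p = 0.0753) or without Cd mouse 2 (0.51, adjusted p = 0.0555), and also without the filter on low values (adjusted p = 0.0619).

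Nfkbiz (chr16:55811375-55838899, minus strand), which encodes the nuclear cofactor IkBζ, was 3.63, 3.09, 3.44 and 3.68 TPM in control mice. In Cd mice it was 6.64, 6.92, 5.03 and 4.57 TPM, in Cd+Se mice 7.60, 5.03, 9.39 and 4.54 TPM and in Se mice 1.76, 5.05, 3.70 and 3.61 TPM. All Cd and Cd+Se mice were above all control mice, and Se mouse 40 lay among them. In Cd against control its log2 fold change was 0.59 (SE 0.23, adjusted p = 0.0574 by limma), which missed the threshold. It was called without Cd+Se mouse 15 (adjusted p = 0.0413), Se mouse 39 (0.027) or Se mouse 40 (0.0418). Tnfaip3 (chr10:19000910-19015657, minus strand), which encodes A20, was 0.79, 0.84, 0.93 and 0.64 TPM in control mice. In Cd mice it was 1.55, 1.51, 0.96 and 1.51 TPM, in Cd+Se mice 4.36, 1.49, 5.37 and 1.94 TPM and in Se mice 0.84, 0.96, 0.97 and 0.59 TPM. Cd mouse 5 lay just above the control values and apart from the other 3 Cd mice, and Cd+Se mice 13 and 15 were far above all others. For Tnfaip3 the ratio of means with Cd was 1.73 and the log2 fold change 0.40 (SE 0.24, adjusted p = 0.21 by limma). It was 0.51 with quantile normalization (adjusted p = 0.107), 0.62 with centring (0.0604) and 0.71 with a pseudocount of 0.1 (0.126), and it was called in a model of these 2 groups alone (0.0386).

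Icam1 (chr9:21015985-21028817, plus strand), the adhesion molecule that endothelial cells and other liver cells display to leukocytes, was 5.99, 5.78, 6.14 and 6.39 TPM in control mice, against 8.09, 9.43, 7.15 and 7.60 TPM in Cd mice. It was 16.14, 11.30, 11.92 and 9.92 TPM in Cd+Se mice and 4.78, 8.78, 5.61 and 7.65 TPM in Se mice. The control, Cd and Cd+Se groups formed 3 separate ranges in that order, and the Se range reached over those of control and Cd mice. In Cd against control its log2 fold change was 0.35 (SE 0.16, adjusted p = 0.111 by limma). With quantile normalization, which moved the median log2 fold change of all genes from -0.17 to -0.015, both Nfkbiz (0.80, adjusted p = 0.00807) and Icam1 (0.57, adjusted p = 0.00636) were called, and 4 of the 10 genes in all. Of all 11766 genes tested, 1710 were then called as higher and 2276 as lower.

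Cd+Se against Se compared mice with and without Cd on the SeMet diet, and shares no mice with Cd against control. Tnfaip3 and Icam1 rose. The 4 genes that lay above the control values in every Cd mouse also had higher means in Cd+Se than in Se mice, whereas Il6st had a ratio of 1.02. Of the 10 genes, 2 were called as higher, beside 0.544% of all genes tested, and 2 did not overlap between the groups, beside 5.64% of all genes. Tnfaip3 had a mean of 0.84 ± 0.177 TPM in Se and 3.29 ± 1.87 in Cd+Se mice (SD, n = 4), a ratio of 3.92, and a log2 fold change of 1.12 (SE 0.24, adjusted p = 0.0385 by limma). Icam1 had a mean of 6.71 ± 1.84 TPM in Se and 12.3 ± 2.68 in Cd+Se mice, a ratio of 1.84, and a log2 fold change of 0.80 (SE 0.16, adjusted p = 0.0325 by limma). The log2 fold changes of Nfkbia and Nfkbiz, which were not called, were 0.57 (adjusted p = 0.182) and 0.76 (adjusted p = 0.179). That of Il6st was 0.01 (SE 0.15, adjusted p = 0.992 by limma). Both calls sat near the threshold. Tnfaip3, whose mean was under 1 TPM in control and Se mice, passed the filter on low values through the groups given Cd, and of the other 9 genes 1 was called. Without that filter neither gene was called (adjusted p = 0.0786 for Tnfaip3 and 0.0602 for Icam1). Neither was called without Cd+Se mouse 13 (adjusted p = 0.143 and 0.119). In all, 12 of the 16 fits that left out 1 mouse lost Tnfaip3 and 8 lost Icam1, and in a model of these 2 groups alone the count was 0.

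Cd+Se against Cd asked how the livers of Cd-treated mice differed with SeMet in the diet. It shares the Cd mice with Cd against control, so a fall there and a rise here are not independent. Il6st, Tnfaip3 and Icam1 rose. The mean of Il6st was near that of control mice, whereas Tnfaip3 and Icam1, whose means in Cd mice were already above control, were higher still. Those 3 of the 10 genes were called as higher and 0 as lower, beside 13.6% of all genes called higher, 2.35% called lower and 15.9% in either direction. Higher calls were 85.3% of all calls, 56.3% with quantile normalization and 42.4% with each library centred on its median. The values of 3 genes, Il6st, Icam1 and Il1b, did not overlap between the groups, beside 19.2% of all genes. Il6st had a mean of 20.5 ± 4.07 TPM in Cd+Se mice (SD, n = 4), a ratio of 1.93 to Cd mice and a log2 fold change of 0.89 (SE 0.15, adjusted p = 0.00534 by limma). It was called in every leave-one-out fit, and missed the threshold in a model of these 2 groups alone (adjusted p = 0.0562). Its log2 fold change was 0.72 with quantile normalization and 0.69 with centring, and it was called in both. Tnfaip3 had a ratio of 2.38 and a log2 fold change of 0.75 (SE 0.24, adjusted p = 0.0417 by limma), and Icam1 a ratio of 1.53 and a log2 fold change of 0.54 (SE 0.16, adjusted p = 0.0357 by limma). Neither was called when genes of low level were kept in (adjusted p = 0.102 and 0.0785). Tnfaip3 was not called without Cd mouse 5 (adjusted p = 0.126) or without Cd+Se mouse 15 (0.11), and it was lost in 11 of the 16 fits that left out 1 mouse. Icam1 was not called without Cd mouse 5 (0.0999) or without Cd+Se mouse 15 (0.0616), and it was lost in 6 of the 16. Without both mice, the log2 fold change was 0.43 for Tnfaip3 (adjusted p = 0.255) and 0.50 for Icam1 (adjusted p = 0.141), and neither was called. With quantile normalization they were 0.60 (adjusted p = 0.0922) and 0.35 (adjusted p = 0.096), so that Icam1 passed the threshold in Cd against control and missed it here. Nfkbia and Nfkbiz had log2 fold changes of 0.09 and 0.14, which turned to -0.04 and -0.06 with quantile normalization.

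**Figure D2:**
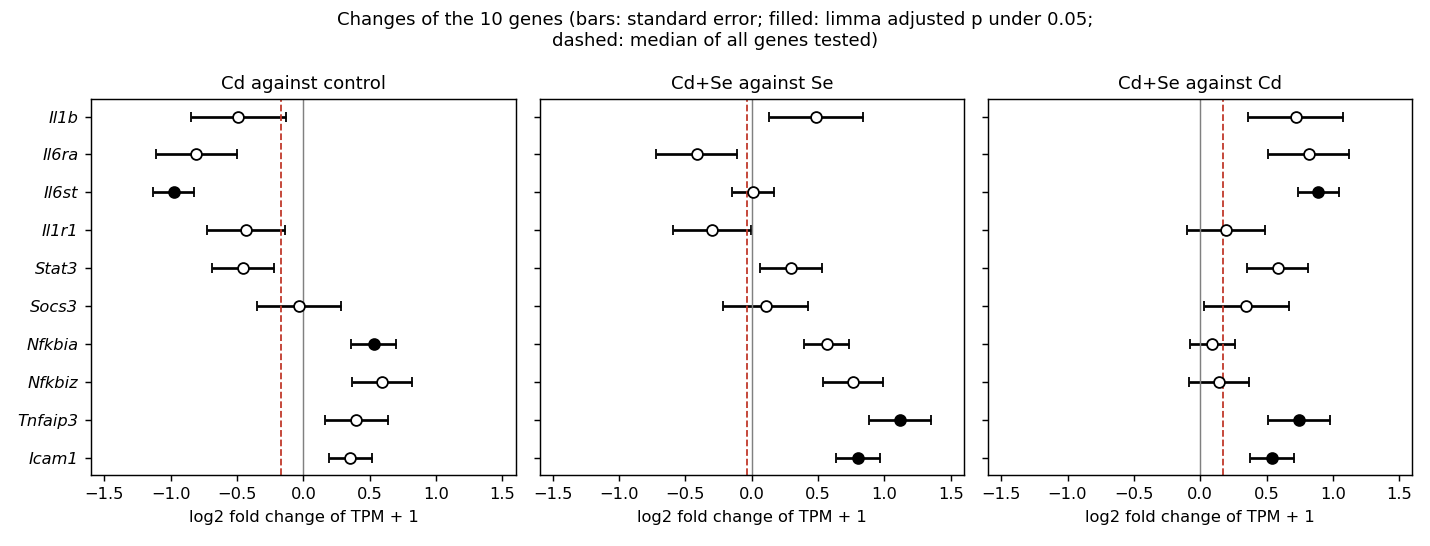
Log2 fold changes of TPM + 1 (x axis) of the 10 genes (rows) in Cd against control, Cd+Se against Se and Cd+Se against Cd. Points are limma estimates with bars for the standard error, filled where called, and the dashed line is the median of all genes tested (-0.17, -0.03 and 0.17). Il6st is filled at -0.98 in the left and 0.89 in the right panel, and Tnfaip3 and Icam1 are filled in the middle and right panels.

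Cd+Se against control set the mice given both agents beside those given neither. Tnfaip3 (log2 fold change 1.15, SE 0.24, adjusted p = 0.038 by limma) and Icam1 (0.89, SE 0.16, adjusted p = 0.0181 by limma) rose, 2 of 10 genes beside 0.314% of all genes called as higher. Tnfaip3 passed the filter on low values through the groups given Cd, and of the other 9 genes 1 was called. The mean of Tnfaip3 was 0.80 ± 0.121 TPM in control mice and that of Icam1 was 6.08 ± 0.257, so the ratios were 4.11 and 2.03. The values of 4 genes, Nfkbia, Nfkbiz, Tnfaip3 and Icam1, lay above those of control mice in every Cd+Se mouse, beside 8.86% of all genes whose groups did not overlap. Il6st had a ratio of 0.95 and a log2 fold change of -0.09 (SE 0.15, adjusted p = 0.89 by limma). Leaving out any 1 of the 4 control mice, or Cd+Se mouse 13, brought the count of called genes to 0. Without Cd+Se mouse 15, Tnfaip3 had a log2 fold change of 0.92 and missed the threshold (adjusted p = 0.054), and it also missed it without the filter on low values (adjusted p = 0.0758), where Icam1 was called (0.0375). This comparison shares the Cd+Se mice with the 2 before it.

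Se against control called 0 of the 10 genes with limma and 0.0% of all genes tested, and 0 of the 10 had an unadjusted p under 0.05, beside 454 of all genes. Ratios of means lay between 0.883 for Stat3 and 1.44 for Il6ra, whose values in Se mice 40 and 41 were above all those of control mice. The interaction asked whether the change with Cd differed between mice fed SeMet and mice fed without it. It was called for Il6st (0.99, SE 0.22, adjusted p = 0.0453 by limma), 1 of 10 genes beside 1.04% of all genes tested. It was lost in 13 of the 16 fits that left out 1 mouse, with limma adjusted p up to 0.104, among them that without Cd mouse 5 (0.0679), and was called without Cd+Se mouse 15 (0.0284). The interaction estimates were 0.72 for Tnfaip3 (adjusted p = 0.227) and 0.45 for Icam1 (adjusted p = 0.274), so a difference in their Cd response between the diets was not shown.

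Other genes of the pathways were examined in 6 lists by role, 110 genes of which 93 were tested. In Cd against control, 12 of them rose and 19 fell, 33.3% beside 30.8% of all genes, and in Cd+Se against Cd 15 rose and 2 fell, 18.3% beside 15.9%. Of 29 downstream targets tested, 10 rose and 2 fell with Cd, with a median log2 fold change of 0.51, beside 5.82% of all genes called higher, 24.9% called lower and a median of -0.17. The chemokine genes Cxcl2 and Ccl2 had means under 1 TPM in control and Se mice and passed the filter through the groups given Cd. Of the 27 other targets 8 rose and 2 fell, with a median of 0.42. Of 3 cytokine genes tested, 1 rose and 0 fell, and of 10 receptor genes 1 rose and 1 fell. Of 17 kinases and adaptors 5 fell (29.4%), and of 15 transcription factors 4 fell (26.7%), both near the 24.9% of all genes. Of 19 feedback inhibitors 7 fell (36.8%), and 0 genes of these 3 lists rose. Medians of the 5 lists, in that order, were 0.24, -0.14, -0.25, -0.03 and -0.31. Differences between lists were not tested. With each library centred on its median, the counts with Cd were 20 higher and 15 lower over all 6 lists, the kinases and adaptors stayed at 0 and 5, the feedback inhibitors were at 1 and 5, and the transcription factors turned to 3 and 2. With quantile normalization the targets were at 8 and 3 and the transcription factors at 2 and 3. For Cd+Se against Cd, 10 rose and 3 fell with quantile normalization. Without both Cd mouse 5 and Cd+Se mouse 15, the 17 calls of Cd+Se against Cd became 4. Of the genes named by rule and described below, Jak1, Ptpn1 and Il11ra1 were still called in that comparison, whereas Il18, Il22ra1, Tnfrsf1b, Irak1, Irak4, Ptpn11, Birc3 and Vcam1 were not, and in Cd against control Il18, Rela and Saa2 were not.

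**Figure D3:**
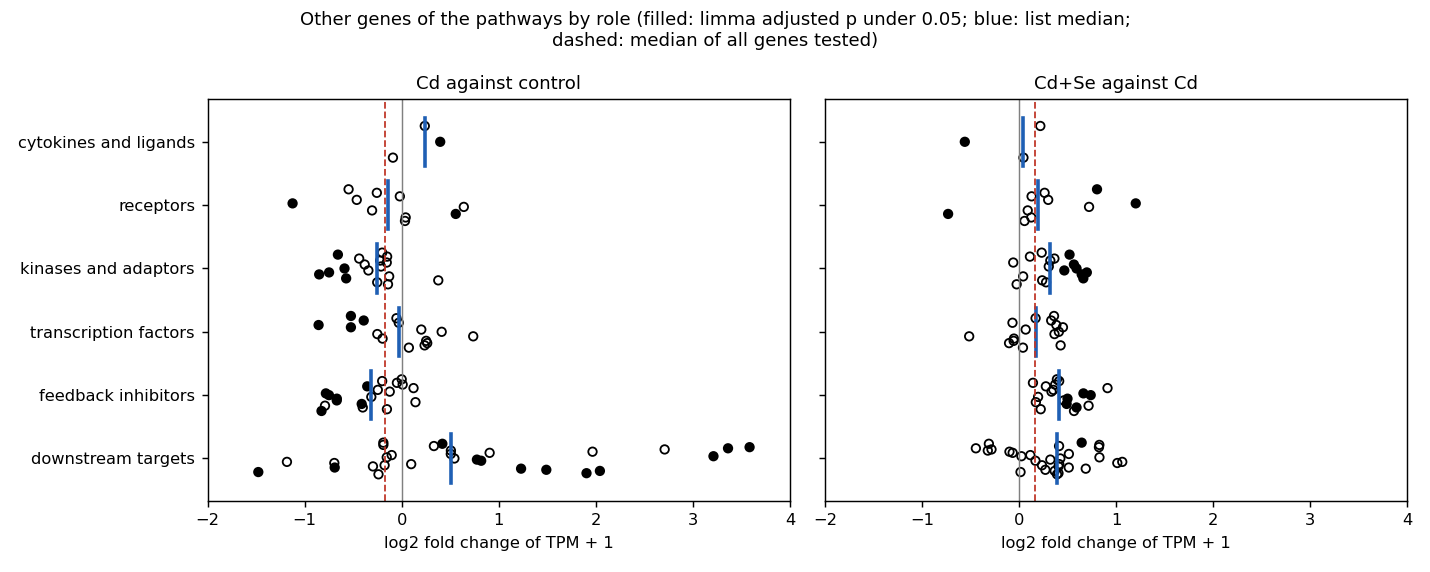
Log2 fold changes of TPM + 1 (x axis) of the 93 tested pathway genes in 6 lists by role (rows), in Cd against control (left) and Cd+Se against Cd (right). Each point is a gene, filled where called, the blue line is the median of its list and the dashed line the median of all genes. In Cd against control the filled target genes reach 3.58, whereas the filled kinases, transcription factors and feedback inhibitors are all below 0.

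Most cytokine genes upstream of the 10 genes had few transcripts in whole liver. Of 11 ligand genes, 3 were tested. Mean levels of Il6 were 0.0575 TPM in control, 0.0325 in Cd, 0.135 in Cd+Se and 0.163 in Se mice, and it was listed at 0 in 8 of the 16 mice. Il11, Lif, Osm and Il10 had means of 0.0181, 0.0156, 0.0369 and 0.103 TPM over all mice, and Il22 was listed at 0 in all of them. Tnf had a mean of 0.105 TPM in control, 0.247 in Cd, 0.423 in Cd+Se and 0.0725 in Se mice. Clcf1, Ctf1 and Il1a had means of 0.796, 3.08 and 2.14 TPM over all mice. Il18, a cytokine of the interleukin-1 family, was the most abundant of them, and rose from 18.5 ± 2.69 TPM in control to 24.6 ± 3.43 in Cd mice (SD, n = 4, log2 fold change 0.40, adjusted p = 0.0346). It fell to 16.4 ± 2.67 TPM in Cd+Se mice (-0.56 against Cd, adjusted p = 0.0154).

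Among 10 tested receptor genes, Il22ra1, the receptor chain through which interleukin-22 acts on hepatocytes, changed in both comparisons. It fell from 2.08 ± 0.628 to 0.402 ± 0.217 TPM with Cd (log2 fold change -1.12, adjusted p = 0.00816) and was 2.45 ± 1.62 TPM in Cd+Se mice (1.20 against Cd, adjusted p = 0.015), and its interaction was not called (1.07, adjusted p = 0.151). Il11ra1, which pairs with gp130 to bind interleukin-11, went the other way. It rose from 20.4 ± 2.79 to 30.4 ± 3.52 TPM with Cd (0.56, adjusted p = 0.0182) and was 18.3 ± 4.54 TPM in Cd+Se mice (-0.73 against Cd, adjusted p = 0.0128). Tnfrsf1b, a receptor of tumour necrosis factor, was 5.94 ± 0.241 TPM in Cd and 11.8 ± 4.78 in Cd+Se mice (0.80, adjusted p = 0.0208).

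Jak1, the main kinase attached to gp130, fell with Cd from 27.1 ± 1.23 to 16 ± 3.51 TPM (log2 fold change -0.75, adjusted p = 0.00108) and was 26.2 ± 2.08 TPM in Cd+Se mice (0.70 against Cd, adjusted p = 0.00686). Irak4 and Traf6, which carry the interleukin-1 receptor signal, fell with Cd by 0.85 and 0.66 on the log2 scale (adjusted p = 0.0012 and 0.00648). Irak4 and its partner Irak1 were higher in Cd+Se than in Cd mice, with log2 fold changes of 0.65 and 0.66, and 7 of the 17 kinases and adaptors rose in that comparison (41.2%, beside 13.6% of all genes), or 5 with quantile normalization or centring, which also lower the share of higher calls over all genes. Among transcription factors, Stat6 and the NF-kB subunit gene Rela fell with Cd, both with a log2 fold change of -0.52. Stat6 was 20.8 ± 0.869 TPM in control and 14.3 ± 2.58 in Cd mice. None of the 15 was called in Cd+Se against Cd.

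The list of feedback inhibitors is broad and also holds regulators such as Bcl3 and Birc3, so its counts do not measure feedback inhibition. Of the 19 genes of this list tested outside the 10 genes, 7 fell with Cd and 0 rose, and 24.9% of all genes were called lower. Ptpn11 and Ptpn1, phosphatases that act on cytokine receptor and JAK signalling, fell with Cd by 0.78 and 0.75 on the log2 scale (adjusted p = 0.00209 and 0.00102). They were higher in Cd+Se than in Cd mice by 0.66 and 0.74 (adjusted p = 0.0148 and 0.00577). Bcl3, a nuclear relative of the IkB proteins, fell from 13.6 ± 2.95 to 7.13 ± 0.737 TPM with Cd (-0.83, adjusted p = 0.00566). Birc3, a ubiquitin ligase of NF-kB signalling, rose in Cd+Se against Cd (0.59, adjusted p = 0.0391), where 5 of 19 rose and 0 fell (26.3%, beside 13.6% of all genes called higher), or 3 and 0 with quantile normalization or centring.

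On the log2(TPM + 1) scale, targets with the largest rise in Cd against control were acute-phase genes. Other acute-phase genes did not all rise. Hp (0.82, adjusted p = 0.0284 by limma) and Hpx (0.77, adjusted p = 0.0471) were called higher, and the fibrinogen gene Fga lower (-0.69, adjusted p = 0.00737). The other target called lower was Ccnd1 (-1.48, adjusted p = 0.00933). Of acute-phase targets not called, Saa1, Orm1 and Orm2 had positive log2 fold changes, and Fgb, Fgg, Serpina3n, Lbp and Hamp negative ones. By ratio of means, the chemokine genes Cxcl2 (11.4) and Ccl2 (8.83) came below Saa3 (13.1) and above Lcn2 (6.49) and Saa2 (3.80). Saa3, serum amyloid A3, was 13.3 ± 1.69 TPM in control, 173 ± 43.6 in Cd, 328 ± 152 in Cd+Se and 25.1 ± 18.2 in Se mice, with a log2 fold change of 3.58 in Cd against control (SE 0.44, adjusted p = 0.000118 by limma). Saa2 (3.36, SE 1.24, adjusted p = 0.0496 by limma) and the iron-binding protein gene Lcn2 (3.21, SE 0.86, adjusted p = 0.0112 by limma) rose as well, and both varied among control mice (967 ± 1570 TPM for Saa2 and 19.3 ± 24.2 for Lcn2). Leaving out each mouse gave log2 fold changes from 2.36 (without control mouse 29, adjusted p = 0.168) to 4.53 (without control mouse 27, adjusted p = 0.0108) for Saa2. For Lcn2 they went from 2.75 (without control mouse 28) to 3.94 (without control mouse 27), and it was called in each. Of 29 targets, 1 was called in Cd+Se against Cd, the adhesion molecule gene Vcam1 (0.65, SE 0.20, adjusted p = 0.0416 by limma), at 4.68 ± 0.436 TPM in Cd and 8.01 ± 1.93 in Cd+Se mice.

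Whole liver holds many cell types, and in bulk RNA fewer cells of a type and less RNA per cell cannot be told apart. Markers of several types moved with Cd. All 6 Kupffer cell markers fell in Cd against control, of which Timd4 passed the filter through the groups without Cd. Their summed level was 116 ± 11.7 TPM in control, 44.8 ± 8.89 in Cd, 53.6 ± 14.7 in Cd+Se and 98.6 ± 37.8 in Se mice, with 0 markers at 0 in any mouse and Cd5l the most abundant. Of the 6, 1, Adgre1, rose in Cd+Se against Cd.

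**Figure D4:**
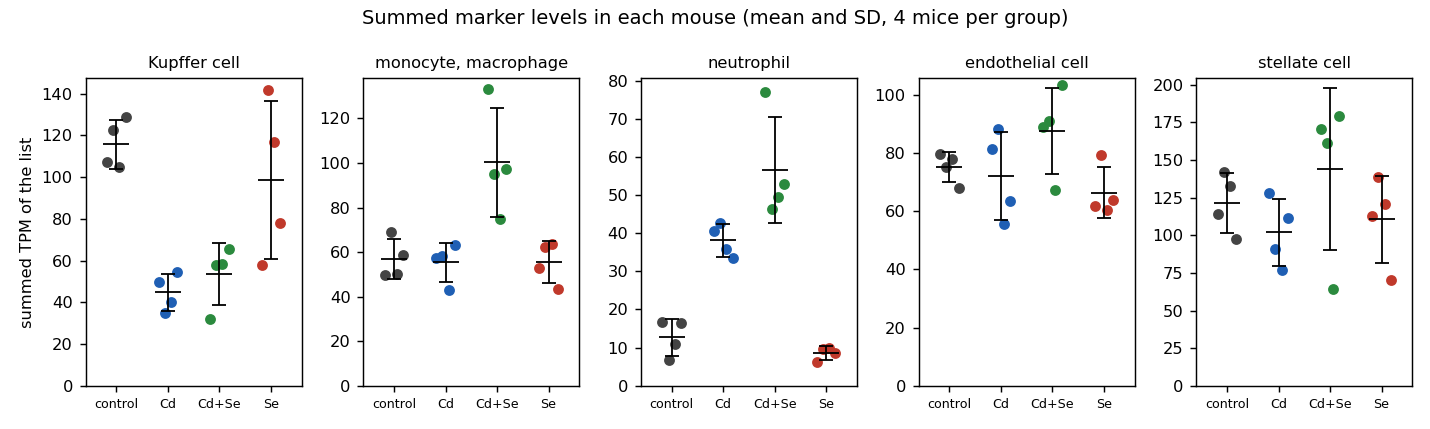
Summed TPM (y axes, each from 0) of the markers of 5 cell types in each mouse of the 4 groups, with a horizontal line for the mean and bars for the SD. Kupffer cell markers are at 54.4 TPM or below in Cd mice and at 105 TPM or above in control mice, and neutrophil markers are at 33.4 TPM or above in mice given Cd and at 16.7 TPM or below in the rest.

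The summed level of the neutrophil markers was higher in the groups given Cd. Of 7 markers 4 were tested, and of those Retnlg and Csf3r had means under 1 TPM in control and Se mice and passed the filter through the groups given Cd. The other 2, S100a8 and S100a9, rose in Cd against control and in Cd+Se against Se, as did Retnlg, and Csf3r rose in Cd+Se against Se. In Cd+Se against Cd, where Tnfaip3 and Icam1 were called, limma called 0 of the 4 (log2 fold changes 0.31 to 0.60, adjusted p 0.212 to 0.26), and 0 had an unadjusted p under 0.05. The sum was 12.7 ± 4.82 TPM in control, 38.1 ± 4.32 in Cd, 56.5 ± 13.9 in Cd+Se and 8.63 ± 1.76 in Se mice, with S100a9 the most abundant. It was between 33.4 and 42.7 TPM in Cd mice and between 46.4 and 77.0 in Cd+Se mice, so these groups did not overlap. The defining marker Ly6g, with a mean of 0.0312 TPM over all mice, was too low to show whether it follows the sum, and was not tested. Its means were 0.02 TPM in control, 0.04 in Cd and 0.065 in Se mice, and it was listed at 0 in all 4 Cd+Se mice and in 11 of the 16 mice in all, and Retnlg and Ngp at 0 in 1 each. Monocyte and macrophage markers, led by Lyz2, summed to 56.9 ± 8.98 TPM in control, 55.4 ± 8.76 in Cd, 100 ± 24.3 in Cd+Se and 55.5 ± 9.51 in Se mice. Ly6c2 and Ccr2 rose among the 5 tested in Cd against control, both of which had means under 1 TPM in control and Se mice and passed the filter through the groups given Cd. The other 3, which were not called, had negative log2 fold changes (-0.73 for Cd14, -0.13 for Cd68 and -0.05 for Lyz2). Lyz2 and Cd68 rose in Cd+Se against Cd, where Tnfaip3 and Icam1 rose. In Cd+Se against Se, where those genes also rose, Ccr2 (1.31), Lyz2 (0.82) and the endothelial marker Lyve1 (1.68) were called as higher. The Kupffer cell markers Clec4f (-1.34), Vsig4 (-1.55) and Timd4 (-1.46) were called as lower there. In Cd+Se against control, S100a8, S100a9, Retnlg and Ccr2 rose and Clec4f, Vsig4 and Timd4 fell. Of the 7 endothelial markers, Stab1 rose and Kdr, Stab2 and Cdh5 fell with Cd, and Lyve1 rose in Cd+Se against Cd. Their sum, led by Clec4g, was 75.2 ± 5.25, 72.2 ± 15.2, 87.6 ± 14.9 and 66.4 ± 8.81 TPM in control, Cd, Cd+Se and Se mice. Among 4 tested stellate cell markers, led by Dcn, Reln fell with Cd, and among 5 hepatocyte markers Cps1 fell. Cps1 rose in Cd+Se against Cd (log2 fold change 0.87, adjusted p = 0.00838 by limma). Cholangiocyte and T and B cell markers summed to at most 4.29 and 4.05 TPM in any mouse, and 0 of their 8 genes were tested. The part of these cell types in the levels of the 10 genes was not tested.

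Across the 16 mice, the NF-kB regulators and Icam1 varied together. Pearson's r of log2(TPM + 1) was 0.834 for Nfkbiz and Icam1, 0.815 for Tnfaip3 and Icam1, 0.814 for Nfkbia and Tnfaip3, and 0.792 for Nfkbia and Nfkbiz, the 4 highest of the 45 pairs. The mice share their groups, so these values hold the group differences. For Socs3 the closest of the 10 genes was Stat3 (r = 0.554). Among all genes tested, those most like Nfkbia were Cxcl2 (r = 0.879), Mid1 (0.874), Mafk (0.872), Gm48942 (0.867) and Nfkb2 (0.858). Cxcl2, a neutrophil chemokine gene, had means of 0.152, 1.75, 3.70 and 0.163 TPM in control, Cd, Cd+Se and Se mice, and passed the filter through the groups given Cd. Nfkb2, an NF-kB subunit gene, had means of 1.70, 2.60, 3.89 and 1.70 TPM. Those most like Socs3 were Gm12161 (r = 0.783), Slc2a1 (0.780), Arl13b (0.774), Slc7a2 (0.764) and Accs (0.760). Gm12161, a processed pseudogene, had a mean of 1.17 TPM over all mice and a lowest value of 0 TPM in every group.

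In the order of levels, which TPM allow between genes of different length, Stat3 (26.6 TPM) and Il6st (21.6) led in control mice with ranges that overlapped, and Nfkbia (18.5) lay below both and overlapped the next, Il1r1. Il1r1 (16 TPM) and Il6ra (10.5) overlapped, Icam1 (6.08) was below both, and Socs3 (4.47), Il1b (3.48) and Nfkbiz (3.46) overlapped one another. Tnfaip3 (0.80 TPM) was lowest, below every value of the others. In Cd mice the order was led by Nfkbia (27.3 TPM), whose 4 values were above all 4 of Stat3 (18.9), and Il6st (10.6) stood below Il1r1 (11.3), with ranges that overlapped. In Cd+Se mice Stat3 (29.8 TPM), Nfkbia (29.6) and Il6st (20.5) had the highest means, with ranges that overlapped. The place of Stat3 rests on mouse 15, at 45.39 TPM, and by medians Nfkbia (29.9 TPM) lay above Stat3 (26.7).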

How the data were processed

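The data are liver RNA levels of 16 mice in 4 groups of 4, taken from the treatment labels. Per the labels, RNA was enriched for poly(A), sequenced on the Illumina NovaSeq platform and processed with fastp, HISAT2 and StringTie. The submitters' processing notes name the build GRCh38, a human build, although the table lists mouse Ensembl identifiers; gene positions were therefore taken from GENCODE M21 (GRCm38) by identifier. The authors deposited TPM for 57010 genes, with 1 column per mouse. The titles name 2 parts per mouse, and how they were joined is not given in the sources used here. TPM keep no depth, so no interval from counts is given and tests made for counts were not used. Whether mice of a group were housed or processed together is not stated, and p-values measure the spread between these mice.

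Values were compared as log2(TPM + 1) with limma 3.58.1 in R 4.3.3 over 11766 genes (mean TPM of 1 or more), in 1 model of 4 group means with an intensity trend in eBayes and Benjamini-Hochberg adjustment (threshold 0.05). Tables were made with Python 3.11.15, pandas 2.3.3 and numpy 2.4.6. All 10 genes passed the filter, so the exact permutation test planned for genes under it was not needed. The fit was tested on simulated data with known changes. At most 1.07% of genes had identical values in a pair of libraries. The 10 genes, the 6 lists by role and the cell type markers were chosen with earlier results of these data known, and a call on them is not independent support. Other genes are named by rule: up to 3 called genes per list with the largest change in Cd against control and in Cd+Se against Cd, all cytokine genes, the 5 genes most correlated with Socs3 and with Nfkbia, the most abundant marker of each cell type and markers at 0. The result of 1 gene that the rule names is not reported here. Stat5a, named for its overlap, further downstream targets and the cell type markers that were called are named beyond that rule, after their values were seen. Promoter windows are from RefSeq (GRCm38.p6), matched by symbol. Alternatives were a pseudocount of 0.1, no filter, a mean of at least 5 TPM, centring each library on its median, quantile normalization, a model of the groups compared alone, eBayes without a trend, and leaving out each mouse. Leaving out Cd mouse 5 and Cd+Se mouse 15 together was added after seeing the data.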

Additional observations from a re-analysis of the deposited data

Results flagged for a closer look

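In 3 of 40 groups of 4 mice examined, 1 mouse lay apart from the others by Dixon's test (the ratio of its gap from the nearest mouse to the whole range of the group), and chance alone gives about 2 of 40. Socs3 in control mouse 30 was 8.65 TPM, against 2.78 to 3.36 in the other 3 control mice (ratio 0.901). Tnfaip3 in Cd mouse 5 was 0.96 TPM, against 1.51 to 1.55 in the other 3 Cd mice (ratio 0.932). Il1r1 in Cd+Se mouse 15 was 28.86 TPM, against 9.44 to 10.30 in the other 3 Cd+Se mice (ratio 0.956). The last 2 mice are those whose libraries stood apart over all genes.

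The interaction of Il6st was called in the main fit, at 0.987 on the log2 scale (adjusted p = 0.0453 by limma). With Cd it fell by 0.98 in mice fed without SeMet and had a log2 fold change of 0.01 in mice fed SeMet. The adjusted p of the interaction was between 0.0148 and 0.104 over 23 alternatives, of which 9 called it and 14 did not, so it depends on the mice and settings used.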

How the results depend on the processing

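Of 2023 comparisons of 86 log2 fold changes with their alternatives, 1768 kept direction and side of the threshold, 168 lost the call, 20 gained it and 67 changed sign; the cause was not tested. The depth is unknown, so what it limits could not be assessed. No paired analysis was possible because the mice of different groups share no number in the labels.

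The count of the 10 genes called in Cd against control was 2, and it was 1 without the filter, 4 with quantile normalization or centring and 6 in a model of these groups alone. Of all 11766 genes, 685 were called higher and 2934 lower in the main fit. These were 1710 and 2276 with quantile normalization and 2260 and 1804 with centring. The number of all genes called in a model of these groups alone is not given here. For Cd+Se against Cd it was 3, and it was 1 without the filter, with quantile normalization, with centring or without both libraries that stood apart, and 0 in a model of these groups alone. The count for Cd+Se against control was 2, and it was 1 without the filter, with a mean of at least 5 TPM (which leaves out Tnfaip3) or without both libraries that stood apart, and 0 in a model of these groups alone. That for Cd+Se against Se was 2, and it was 0 without the filter or in a model of these groups alone and 1 with a mean of at least 5 TPM. The interaction went from 1 to 0 without the filter. Leaving out each mouse gave 1 to 4 in Cd against control, 1 to 3 in Cd+Se against Cd, 0 to 3 in Cd+Se against control, 0 to 2 in Cd+Se against Se and 0 to 1 for the interaction.

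Of the pathway genes by role, 17 were called in Cd+Se against Cd, and there were 10 without the filter, 1 in a model of these groups alone, 4 without both libraries and 9 to 21 when each mouse was left out. There were 5 in Cd+Se against control, and 2 with a mean of at least 5 TPM and 1 in a model of these groups alone. There were 6 in Cd+Se against Se, and 2 and 0 under the same settings. For the interaction there was 1, and 0 without the filter, 5 with quantile normalization or centring, 2 without both libraries and 0 to 5 when each mouse was left out. In Cd against control leaving out each mouse gave 21 to 35 of these genes.

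Signs changed where the log2 fold change was near 0. With quantile normalization and with centring, in that order, Socs3 went to 0.173 and 0.187 in Cd against control and to -0.044 and -0.048 for the interaction, Nfkbia to -0.038 and -0.104 in Cd+Se against Cd and to -0.078 and -0.149 for the interaction, Nfkbiz to -0.058 and -0.056 and to -0.022 and -0.016, and Il1r1 to -0.027 and -0.057 for the interaction and, with centring, to -0.000477 in Cd+Se against Cd. Without both libraries, Socs3 was -0.089 in Cd+Se against Se and -0.051 for the interaction, and in Cd+Se against control Stat3 was -0.093, Il6ra -0.310 and Il6st 0.028. Nfkbia, Nfkbiz and Il1r1 were then -0.029, -0.077 and -0.122 in Cd+Se against Cd and -0.084, -0.047 and -0.188 for the interaction.

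Leaving out each mouse gave ranges across 0 in 20 cases. For Socs3 they were -0.172 to 0.278 in Cd against control, -0.147 to 0.305 in Cd+Se against Se and -0.174 to 0.338 for the interaction. For Nfkbia they were -0.040 to 0.252 in Cd+Se against Cd, -0.024 to 0.123 in Se against control and -0.095 to 0.197 for the interaction, and for Nfkbiz -0.025 to 0.277, -0.188 to 0.190 and -0.051 to 0.326. For Il1r1 they were -0.169 to 0.337, -0.054 to 0.221 and -0.235 to 0.270 in the same comparisons. For Stat3, Il6ra, Il6st and Il1b they were -0.093 to 0.281, -0.310 to 0.243, -0.169 to 0.028 and -0.020 to 0.390 in Cd+Se against control. For Il6st they were -0.073 to 0.126 in Cd+Se against Se, and for Tnfaip3, Il1b and Icam1 -0.015 to 0.097, -0.568 to 0.039 and -0.033 to 0.220 in Se against control.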
